A study of Homo sapiens with 16 samples.

Results

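The 42 genes described here encode lysosomal hydrolases, lysosomal membrane proteins, subunits of the proton pump that acidifies the organelle, and the transcription factors that control their genes. They were taken by name from a table of 69222 genes. They comprise 8 proteases, 9 glycosidases, 2 sulfatases, 4 lipid hydrolases or thioesterases and 4 proteins classed as lipid transfer proteins or activators. The others are 7 membrane proteins, 4 proteins of the vacuolar ATPase, 3 transcription factors and 1 autophagy receptor. All 42 were found in the table, and 40 had enough reads to be tested. CTSO, a cysteine protease with 6 reads over all libraries, and NEU1, a sialidase with 1 read, were not tested.

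Poly(A) RNA was sequenced from SH-SY5Y cells, a human neuroblastoma line used as a model of catecholaminergic neurons, in 16 libraries of 8 groups with 2 libraries each. In 3 groups the cells were differentiated on a conducting film of P(rGO), PEDOT:PSS (a conducting polymer blend) or ITO (indium tin oxide) and received electrical stimulation, a square wave of 0.1 V at 1 Hz for 8 h a day over the final 4 days. In 3 further groups they were differentiated on the same films without stimulation. The remaining groups were cells differentiated on culture plates and untreated cells on culture plates. The labels give 1 differentiation protocol: serum was lowered stepwise to 1%, retinoic acid was given at 10 μM between day 3 and day 6, and brain-derived neurotrophic factor followed at 50 ng/mL for 4 days. Laminin and poly-L-lysine coated the films, and since the labels do not mention a coat for the plates, film and coat cannot be told apart. Nothing in the labels says whether the 2 libraries of a group came from separate cultures, and the p-values below measure only the spread between these libraries.

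Lysosomes break down proteins, glycans, lipids and nucleic acids delivered by endocytosis and autophagy, and neurons, which do not divide, depend on them to clear long-lived material. Most of their enzymes work only at acid pH, which the vacuolar ATPase maintains. The basic helix-loop-helix factors TFEB, TFE3 and MITF bind a short palindromic E-box in the promoters of many lysosomal genes and are held in the cytoplasm by mTORC1 signalling when nutrients are plentiful. Inherited loss of single members causes lysosomal storage disease, often with damage to neurons.

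Between 15600410 and 20851000 reads were assigned to genes per library. The members took 0.362 to 0.425% of them in the 12 film libraries, against 0.280 and 0.335% in the differentiated plate libraries and 0.279 and 0.319% in the untreated ones. Every film library therefore gave the members a larger share than any plate library. The untreated pair was the least alike: the SD over genes of the log2 ratio of replicate 2 to replicate 1 was 0.86, against 0.40 to 0.54 in the other groups. The first differentiated plate library had 8.58% of its reads from mitochondrial genes and the second 5.42%, film libraries ranged between 4.58 and 7.33%, and the untreated libraries, at 8.09 and 7.51%, lay above all films; the part of this in the results was not tested. Summed over 10 markers of noradrenergic neuroblastoma, the state the line is known for, levels were 2896 to 3590 CPM (read counts scaled to a common library size) on films, 4051 and 4138 CPM on differentiated plates and 5476 and 5999 CPM in untreated cells. In bulk RNA, fewer cells of a type and less RNA per cell cannot be told apart. For NEU1, CLN3, SQSTM1 and CTSO the level is uncertain, because many of their neighbours had few reads as well. All 30 protein-coding genes within 150 kb of NEU1 had under 200 reads in total. So had 8 of 11 around CLN3, 5 of 8 around SQSTM1 and 2 of 3 around CTSO. Other neighbours were well read, such as EIF3CL beside CLN3 at 9398 reads and RNF130 beside SQSTM1 at 13654 reads. The level of CTSD is uncertain as well, since 41.7% of its exon bases lie under another gene on the same strand. For CTSA and FUCA2, 28.5 and 16.9% of the exon bases lie opposite exons of other genes. The labels do not say whether the counting used strand, so their levels carry the doubt given below for PPT1.

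Levels of the members spanned more than 3 orders of magnitude. Per kilobase of exon, PSAP, the precursor of the saposins that present sphingolipids to hydrolases, was highest at 226 CPM per kb on differentiated plates and 278 to 318 CPM per kb in the other 7 groups. CD63, a tetraspanin of late endosomes and lysosomes, came next in every group, with 126 to 151 CPM per kb on films, 70.6 on differentiated plates and 76.1 in untreated cells. GRN, which encodes progranulin, averaged 44.3 CPM per kb over the groups. ATP6AP1, an accessory protein of the proton pump, averaged 34.0, and LAMP1, the most used lysosomal membrane marker, 32.8. GRN stood above the other two in every group, while ATP6AP1 and LAMP1 changed places: ATP6AP1 was lower in untreated cells, at 22.7 CPM per kb against 24.7 for LAMP1, and slightly higher in the other 7 groups. At the low end, TFEB averaged 1.67 CPM per kb, GPNMB 1.08, the cysteine protease CTSZ 0.208, MITF 0.162 and the membrane protein CLN3 0.0874. GPNMB, a glycoprotein of lysosomes and melanosomes, had the widest range of group means, 4.08 on the log2 scale, followed by MITF at 2.41 and CTSZ at 1.63. CTSZ had only 125 reads in all 16 libraries, and its pair on stimulated PEDOT:PSS alone stood at 0.647 and 0.0545 CPM.

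**Figure D1:**
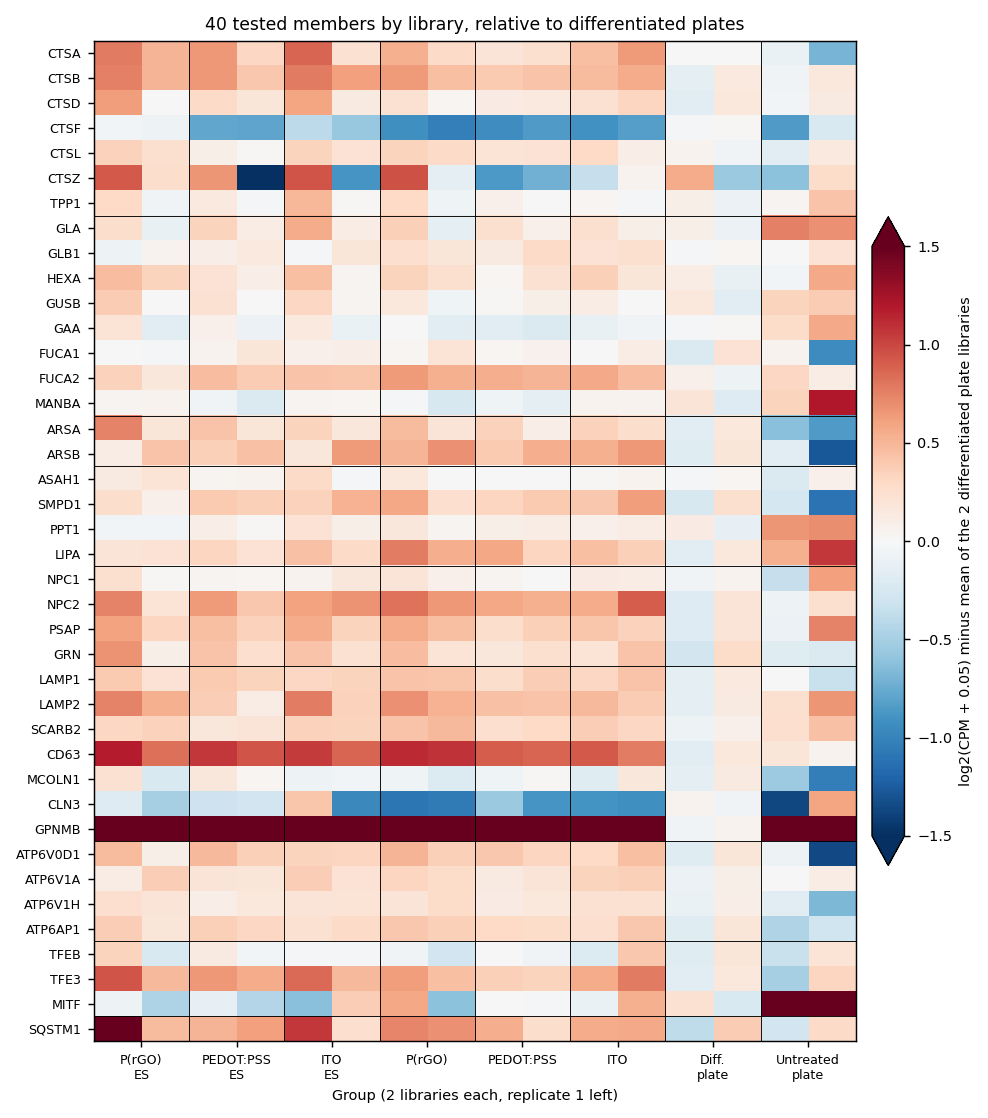
Colour gives log2(CPM + 0.05) of each of the 40 tested members (rows, grouped by role) in each library (columns, 2 per group), minus the mean of the 2 differentiated plate libraries; colours end at ±1.5, and ES marks electrical stimulation. Most rows are red in the film columns, CTSF is blue on films other than stimulated P(rGO), and GPNMB lies beyond the scale on films and in untreated cells.

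Differentiation on plates moved members in both directions. Against untreated cells, 12 of 40 members passed a Benjamini-Hochberg adjusted p of 0.05 in edgeR's quasi-likelihood test, 4 higher and 8 lower; 29.6% of all 18081 tested genes passed it, 13.8% higher and 15.8% lower, so the members' share was close to that background. The median log2 fold change was -0.05 over the members and -0.01 over all genes. By role, 1 of 7 tested proteases and 1 of 2 sulfatases were higher, while 3 of 8 glycosidases and 2 of 4 lipid hydrolases or thioesterases were lower.

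GPNMB fell most. It had 0.651 and 0.699 CPM on differentiated plates, from 12 and 14 reads, against 11.2 and 5.51 CPM in untreated cells, from 189 and 91 reads. The log2 fold change was -3.61 (SE 0.70, edgeR adjusted p = 0.00229). MITF, best known as the master regulator of melanocytes, had 0.977 and 0.699 CPM on differentiated plates and 4.50 and 2.72 CPM in untreated cells (log2 fold change -2.10, SE 0.46, edgeR adjusted p = 0.00507). The libraries of the groups did not overlap for either gene. Markers of cell types in which GPNMB or MITF is high were read in the same libraries. The 8 macrophage or microglia markers summed to 1.25 and 2.30 CPM on differentiated plates and 1.01 and 2.24 CPM in untreated cells, with AIF1 and TYROBP at 0 in every library. The 6 melanocyte markers summed to 7.44 and 9.09 CPM on differentiated plates and 11.5 and 18.9 CPM in untreated cells, mostly PMEL, with TYR at 0 throughout. SOX10 and FOXD3, of the Schwann cell list, were also at 0 in all libraries, and that list of 7 summed to 13.6 and 14.01 CPM on differentiated plates against 36.2 and 36.3 CPM in untreated cells. Markers of mesenchymal neuroblastoma, a second state of this tumour, summed to 171 and 202 CPM on differentiated plates and 842 and 1391 CPM in untreated cells, and 9 fibroblast markers to 221 and 252 CPM against 424 and 637 CPM. The macrophage sums overlapped, and the other lists were lower on differentiated plates; their part in the members' levels was not tested.

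PPT1, the thioesterase that strips palmitate from proteins and is lost in infantile neuronal ceroid lipofuscinosis, had 75.3 and 63.8 CPM on differentiated plates against 109.5 and 112 CPM in untreated cells. Its log2 fold change was -0.67 (SE 0.12, edgeR adjusted p = 0.00142), the smallest adjusted p among the members; 23.4% of its exon bases lie opposite exons of the abundant CAP1, and the labels do not say whether the counting used strand. LIPA, the acid lipase for cholesteryl esters and triglycerides, had 18.9 and 23.5 CPM on differentiated plates and 30.5 and 44.1 CPM in untreated cells, a log2 fold change of -0.81 (SE 0.19, edgeR adjusted p = 0.00619). The glycosidases MANBA, GLA and GAA, which trim mannose, galactose and glycogen, also fell, by 0.82, 0.72 and 0.43 on the log2 scale. SCARB2, the receptor that carries glucocerebrosidase to lysosomes, fell by 0.35. In each of these 6 genes both differentiated libraries lay below both untreated ones.

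The members that rose on differentiation were a calcium channel, a sulfatase, a protease and a pump protein. MCOLN1, the channel that releases lysosomal calcium, had 36.3 and 43.7 CPM on differentiated plates against 27.3 and 19.4 CPM in untreated cells (log2 fold change 0.77, SE 0.20, edgeR adjusted p = 0.0105). ARSA, which removes sulfate from the myelin lipid sulfatide, had 54.3 and 67.6 CPM on differentiated plates and 39.2 and 33.6 CPM in untreated cells, a log2 fold change of 0.74 (SE 0.19, edgeR adjusted p = 0.0117). CTSF, a cysteine protease, rose by 0.50 and ATP6AP1 by 0.39. All 4 had both differentiated libraries above both untreated ones. The count of called members depended on single libraries: it was 3 without differentiated plate replicate 2, 7 without untreated replicate 2 and 20 without untreated replicate 1. It was 1 when the 2 groups were fitted alone, with GPNMB the one left.

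Against untreated cells, more members were called on films than on differentiated plates, and mostly upwards. More of all genes were called as well, 44.8% against 29.6%. The mean over 3 film groups draws on more libraries than the 1 plate group, so the 2 counts differ in precision. Over the mean of the 3 unstimulated films, 21 of 40 members were called, 15 higher and 6 lower, where 44.8% of all genes were called, 20.4% higher and 24.3% lower. The higher ones held both sulfatases (ARSA 1.03 and ARSB 1.17 on the log2 scale), 3 of 4 pump proteins (ATP6V0D1 0.97, ATP6AP1 0.71 and ATP6V1H 0.60), the acid sphingomyelinase SMPD1 (1.06), the proteases CTSA (0.76) and CTSB (0.43), the cholesterol carrier NPC2 (0.59) and the membrane proteins CD63 (0.83), MCOLN1 (0.72) and LAMP1 (0.52). GRN, the fucosidase FUCA2 and TFE3 completed them, at 0.49, 0.33 and 0.55. PPT1, MITF, MANBA, GAA and GLA were lower, by 0.58, 2.00, 0.89, 0.54 and 0.57 on the log2 scale, as was CTSF by 0.40. In the same comparison mesenchymal markers summed to 219 to 297 CPM on unstimulated films against 842 and 1391 CPM in untreated cells, fibroblast markers to 221 to 332 CPM against 424 and 637 CPM and Schwann cell markers to 13.4 to 19.3 CPM against 36.2 and 36.3 CPM, and their part in the members' levels was not tested.

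ARSB, which removes sulfate from dermatan sulfate, shows how uneven the untreated pair was. It had 54.1 to 66.2 CPM in the 6 unstimulated film libraries, against 36.9 and 16.9 CPM in the untreated ones. ATP6V0D1, of the membrane sector of the pump, had 99.3 to 115 CPM on unstimulated films and 76.8 and 31.7 CPM in untreated cells. For both genes the film libraries lay close together and above both untreated libraries. LAMP1 had 189 to 213 CPM on unstimulated films and 159 and 125 CPM in untreated cells (edgeR adjusted p = 0.00265). The count of 21 ranged from 18 to 21 when single libraries were left out. Without untreated replicate 2, CTSF moved to a log2 fold change of -0.05 (edgeR adjusted p = 0.744) and MANBA to -0.39 (edgeR adjusted p = 0.0863), and without untreated replicate 1 TFE3 moved to 0.20 (edgeR adjusted p = 0.374). CTSA, CTSB, FUCA2, NPC2 and GRN also lost their call without 1 of the untreated libraries, at edgeR adjusted p of 0.0687 to 0.12. NPC1, a cholesterol exporter, was called in opposite directions by the remaining library, at -0.52 without replicate 1 and 0.45 without replicate 2.

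**Figure D2:**
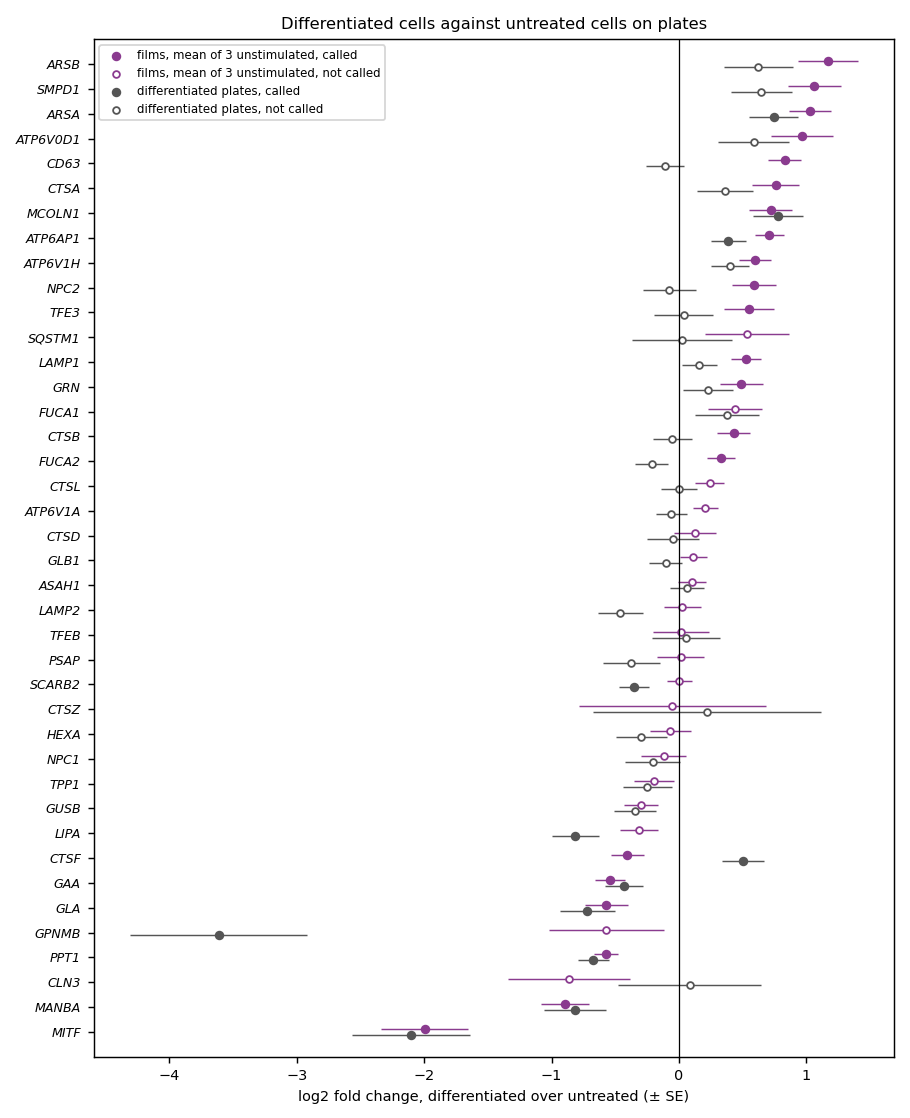
Log2 fold change (horizontal axis, bars ± SE) of the 40 tested members against untreated cells on plates, for the mean of the 3 unstimulated films (purple) and for differentiated plates (grey); filled points passed an adjusted p of 0.05. GPNMB lies at -3.61 on plates and -0.57 on films, CTSF at 0.50 and -0.40, and both sulfatases lie right of 0 in both comparisons.

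The DNA around the transcription start of several of these genes carries the E-box palindrome that TFEB and its relatives recognise, and the sequences are shown because genes with it did not move one way. Windows of 300 bases, 250 before to 50 after the start, were taken from RefSeq (GRCh38.p14) for the 32 members that matched. The letters TCACGTGA, which read the same on both strands, stood in 6 of 32 member windows (18.8%) and in 1.18% of the windows of 27305 genes. The overlapping 8 letters GTCACGTG, on either strand, stood in 25% of member windows and 2.93% of all windows, and the shared core CACGTG in 34.4% and 8.77%. The motif was searched because it is known from promoters of lysosomal genes. A higher share among the members was therefore set by the choice of motif and genes, and is not a finding of these data. A match is a description of the letters and not evidence of binding. The 4 windows below, all on the plus strand, belong to the members with TCACGTGA that had the smallest p in unstimulated films against untreated cells, with that motif in capitals. They span chr17:80101331-80101630 for GAA, chr13:113296989-113297288 for LAMP1, chr19:7522374-7522673 for MCOLN1 and chr20:45891085-45891384 for CTSA.
GAA: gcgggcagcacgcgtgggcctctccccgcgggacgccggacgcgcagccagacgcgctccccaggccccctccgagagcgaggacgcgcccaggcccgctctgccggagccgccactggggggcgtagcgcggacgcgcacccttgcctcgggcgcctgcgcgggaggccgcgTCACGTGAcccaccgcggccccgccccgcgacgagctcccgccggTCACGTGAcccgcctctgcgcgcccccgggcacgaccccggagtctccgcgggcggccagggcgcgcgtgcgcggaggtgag
LAMP1: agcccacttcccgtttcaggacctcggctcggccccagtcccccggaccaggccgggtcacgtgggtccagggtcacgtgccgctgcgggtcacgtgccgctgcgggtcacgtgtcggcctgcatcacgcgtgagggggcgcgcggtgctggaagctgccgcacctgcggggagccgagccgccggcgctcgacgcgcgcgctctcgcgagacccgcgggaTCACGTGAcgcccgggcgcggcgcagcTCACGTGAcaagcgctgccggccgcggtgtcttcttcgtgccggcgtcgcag
MCOLN1: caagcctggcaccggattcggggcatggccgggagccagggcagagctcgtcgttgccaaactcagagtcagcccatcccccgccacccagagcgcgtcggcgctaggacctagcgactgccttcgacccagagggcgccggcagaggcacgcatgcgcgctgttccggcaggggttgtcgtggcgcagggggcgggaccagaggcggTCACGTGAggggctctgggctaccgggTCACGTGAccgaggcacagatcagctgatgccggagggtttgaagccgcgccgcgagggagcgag
CTSA: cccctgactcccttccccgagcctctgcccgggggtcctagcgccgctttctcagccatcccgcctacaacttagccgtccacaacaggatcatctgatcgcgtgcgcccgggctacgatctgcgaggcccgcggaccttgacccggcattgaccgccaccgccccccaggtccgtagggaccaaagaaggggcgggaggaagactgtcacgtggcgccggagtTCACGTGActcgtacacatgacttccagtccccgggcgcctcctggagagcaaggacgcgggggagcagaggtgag
GAA, LAMP1 and MCOLN1 hold the motif 2 times each and CTSA holds it 1 time, and its first occurrence begins 77, 29, 42 and 26 bases before the start in that order. Against untreated cells, LAMP1, MCOLN1, CTSA and a further holder, ATP6V0D1, were higher on unstimulated films and GAA was lower, while CLN3, the last holder, was not called.

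The comparison of films with plates sets differentiated cells on a conducting substrate against differentiated cells on culture plates, the labelled control. On unstimulated P(rGO), 5 of 40 members were called against differentiated plates, 4 higher and 1 lower, where 4.63% of all genes were called, 2.99% higher and 1.64% lower. On unstimulated PEDOT:PSS 2 were called, 1 in each direction, against 1.48% of all genes, 1.02% higher and 0.454% lower. On unstimulated ITO 4 were called, 3 higher and 1 lower, against 4.23% of all genes, 2.5% higher and 1.73% lower. Most other members leaned the same way without passing the test: the log2 fold change was positive in 34, 32 and 34 of 40 members on P(rGO), PEDOT:PSS and ITO, against 48.0, 47.4 and 47.5% of all genes, and its median was 0.31, 0.19 and 0.28 over the members and -0.02 over all genes on each film. The same 2 plate libraries serve as control for all films, so these figures are not independent of each other. Members also moved together between the libraries of 1 group, on unstimulated P(rGO), on differentiated plates and on the stimulated films. Replicate 2 was above replicate 1 in 5, 22 and 25 of 40 members on these unstimulated films and in 28 on differentiated plates. Over all genes it was above in 48.1 to 49.7%. The median log2 ratio of the members was -0.15, 0.02, 0.04 and 0.18 in that order. On stimulated P(rGO), PEDOT:PSS and ITO replicate 2 was above in 8, 8 and 12 of 40 members, against 51.2, 50.9 and 51.7% of all genes. The median log2 ratios there were -0.26, -0.11 and -0.15. In untreated cells it was above in 25 members, with a median of 0.18. The part of these joint shifts in the comparisons with plates was not tested.

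CD63 was higher on every film. It had 403 and 392 CPM on unstimulated P(rGO), 347 and 338 CPM on PEDOT:PSS and 351 and 315 CPM on ITO, against 165 and 207 CPM on differentiated plates. All film libraries lay far above both plate libraries, and the untreated libraries, at 210 and 191 CPM, lay with the plates. The log2 fold change was 1.10 (SE 0.15, edgeR adjusted p = 0.00156) on P(rGO), 0.88 (SE 0.15, edgeR adjusted p = 0.0107) on PEDOT:PSS and 0.84 (SE 0.15, edgeR adjusted p = 0.00688) on ITO. CD63 (chr12:55725323-55729707, minus strand, GRCh38) shares 9.001% of its exon bases with an antisense gene that had 2385 reads in all libraries, against 93833 for CD63. Leaving out differentiated plate replicate 1 kept the CD63 call on P(rGO), with an edgeR adjusted p of 0.0347, and ended it on PEDOT:PSS and ITO, at 0.162 and 0.106. Leaving out either PEDOT:PSS library (0.11 and 0.0949) or ITO replicate 1 (0.0642) also ended it on that film.

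GPNMB (chr7:23235967-23275108, plus strand) was below 1 CPM on differentiated plates and above 3 CPM everywhere else. Unstimulated P(rGO) had 6.41 and 5.79 CPM, PEDOT:PSS 3.57 and 4.81 CPM and ITO 5.27 and 8.56 CPM, against 0.651 and 0.699 CPM on differentiated plates. All 6 unstimulated libraries lay above both plate libraries, and the untreated libraries, at 11.2 and 5.51 CPM, lay within the range of the 12 film libraries. The log2 fold change was 3.16 (SE 0.70, edgeR adjusted p = 0.0203) on P(rGO) and 3.34 (SE 0.70, edgeR adjusted p = 0.0157) on ITO. On PEDOT:PSS it was 2.63 (SE 0.71) with an edgeR adjusted p of 0.0848, and 0.00149 in DESeq2. Read counts behind these levels were low, 56 to 147 in the 6 unstimulated film libraries and 12 and 14 on the plates. The macrophage markers summed to 1.02 to 2.74 CPM and the melanocyte markers to 6.42 to 10.53 CPM in the same 6 film libraries, against the plate values given above, and the lists overlapped between these films and differentiated plates. Leaving out either plate library ended the call on both films, at edgeR adjusted p of 0.0688 to 0.206, as did either P(rGO) library and ITO replicate 2. The mean of unstimulated films against untreated cells gave no call for GPNMB (log2 fold change -0.57, SE 0.45, edgeR adjusted p = 0.322).

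CTSF (chr11:66563463-66568841, minus strand) went the other way. It had 55.2 and 51.3 CPM on unstimulated P(rGO), 54.4 and 58.0 CPM on PEDOT:PSS and 55.7 and 59.0 CPM on ITO, against 103 and 105 CPM on differentiated plates. Unstimulated films and differentiated plates did not overlap, and of the untreated libraries, at 57.9 and 89.3 CPM, the first lay within the range of the films and the second between films and plates. The log2 fold change was -0.97 (SE 0.16, edgeR adjusted p = 0.00461) on P(rGO), -0.89 (SE 0.16, edgeR adjusted p = 0.0141) on PEDOT:PSS and -0.86 (SE 0.16, edgeR adjusted p = 0.00901) on ITO. No annotated exon of another gene overlaps CTSF. It was the only member of 40 with all 12 film libraries below both differentiated plate libraries, a pattern found in 8.3% of all genes. The CTSF call was lost without differentiated plate replicate 1 on all 3 films (edgeR adjusted p = 0.0523, 0.126 and 0.0749 on P(rGO), PEDOT:PSS and ITO). It was also lost without P(rGO) replicate 2, without differentiated plate replicate 2 on PEDOT:PSS, and without either film library on PEDOT:PSS and ITO, at edgeR adjusted p of 0.058 to 0.188. The log2 fold change stayed between -0.98 and -0.82 in these fits.

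FUCA2, an alpha-L-fucosidase, had 55.8 and 51.7 CPM on unstimulated P(rGO), 52.3 and 50.9 CPM on PEDOT:PSS and 53.3 and 49.3 CPM on ITO, against 37.7 and 34.0 CPM on differentiated plates. It was called on P(rGO) (log2 fold change 0.58, edgeR adjusted p = 0.0203) and ITO (0.52, edgeR adjusted p = 0.0383) and had an edgeR adjusted p of 0.0632 on PEDOT:PSS. SCARB2 had 353 and 370 CPM on unstimulated P(rGO) against 249 and 279 CPM on differentiated plates, a log2 fold change of 0.45 (SE 0.12, edgeR adjusted p = 0.0422), and was not called on the other films. Both calls of FUCA2 were lost whichever library was left out. Without differentiated plate replicate 1 the counts of called members were 1, 0 and 0 on P(rGO), PEDOT:PSS and ITO, and without replicate 2 they were 6, 1 and 2. Leaving out 1 of the film libraries gave counts of 2 or 1 with P(rGO), 0 with either PEDOT:PSS library and 1 with either ITO library. FUCA2 and SCARB2 also missed the threshold on P(rGO) with no low-count filter, at edgeR adjusted p of 0.0506 and 0.0849. Counting all alternatives, the SCARB2 call on P(rGO) was lost in 5 of 9 and the FUCA2 call on ITO in 6 of 9.

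**Figure D3:**
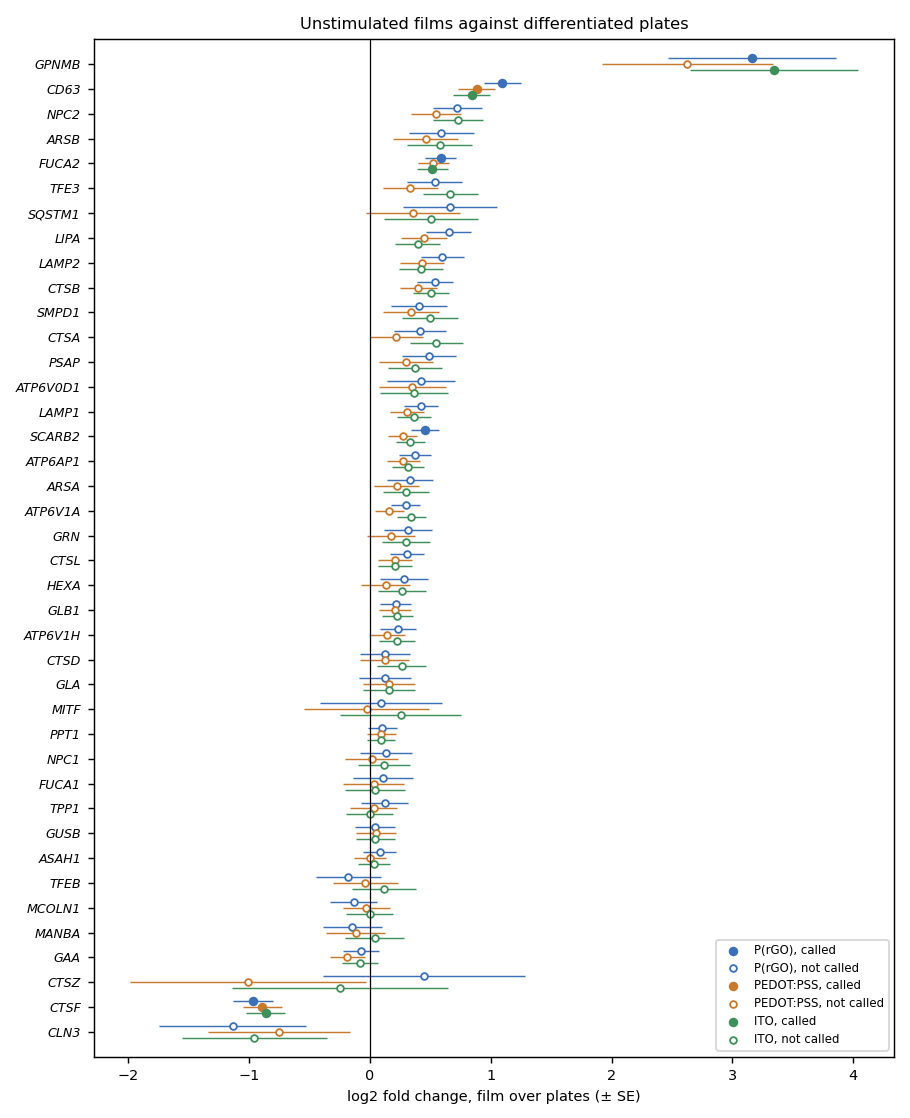
Log2 fold change (horizontal axis, bars ± SE) of the 40 tested members on each unstimulated film against differentiated plates, ordered by the mean over the films; filled points passed an adjusted p of 0.05. GPNMB and CD63 lie at the top, CTSF and the barely read CLN3 at the bottom, and most of the rest sit right of 0 without a call.

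On stimulated films against differentiated plates, CD63 was again called on each film, and CTSF on PEDOT:PSS only. CD63 had 419 and 327 CPM on stimulated P(rGO), 384 and 354 CPM on PEDOT:PSS and 382 and 337 CPM on ITO, against the 165 and 207 CPM of the plates, with log2 fold changes of 1.01, 0.99 and 0.95 and edgeR adjusted p of 0.0086, 0.00675 and 0.00582. It was the only member called higher in all 6 film comparisons, and 34 of 40 were called in none. GPNMB was called on stimulated P(rGO) (4.07 on the log2 scale, edgeR adjusted p = 0.0144) and ITO (3.83, edgeR adjusted p = 0.011) and not on PEDOT:PSS (2.84, edgeR adjusted p = 0.0703). CTSB, a cysteine protease, had 70.3 and 62.9 CPM on stimulated ITO against 37.1 and 45.4 CPM on differentiated plates (0.69 on the log2 scale, edgeR adjusted p = 0.0285), and CTSF was lower on stimulated PEDOT:PSS (-0.78, edgeR adjusted p = 0.0311). In all, 2 members were called on stimulated P(rGO), both higher, where 1.68% of all genes were called and 0.835% were higher. On stimulated PEDOT:PSS 2 were called, 1 in each direction, where 1.25% of all genes were called, 0.791% higher and 0.459% lower. On stimulated ITO 3 were called, all higher, where 2.18% of all genes were called and 1.44% were higher. Without differentiated plate replicate 1 each of these counts was 0, and so it was without the first stimulated library of the film concerned.

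Taking all 12 film libraries, 13 of 40 members were above both differentiated plate libraries, a pattern found in 9.24% of all genes. They were the proteases CTSA and CTSB, FUCA2, LIPA, NPC2, PSAP, the membrane proteins LAMP1, SCARB2, CD63 and GPNMB, the pump subunits ATP6V1A and ATP6V1H, and TFE3. For 7 of them (CTSA, CTSB, LAMP1, CD63, ATP6V1A, ATP6V1H and TFE3) all films were also above the untreated libraries, against 4.02% of all genes. ATP6V1A, of the catalytic sector of the pump, had 102 to 122 CPM on the 12 films. It had 88.8 and 100 CPM on differentiated plates and 95.02 and 102 CPM in untreated cells, so the gap was narrow. Other members of the 13 were near ties with differentiated plates. The lowest film library and the higher plate library stood at 24.08 and 24.02 CPM for NPC2. They stood at 59.35 and 59.32 CPM for ATP6V1H and at 24.1 and 23.5 CPM for LIPA. Some marker sums also differed between films and differentiated plates. The noradrenergic sum was lower on films, as given above. The fibroblast sums overlapped, at 194 to 332 CPM on films and 221 and 252 CPM on differentiated plates. So did the macrophage, melanocyte and Schwann cell sums. Mesenchymal markers summed to 219 to 297 CPM on unstimulated films and 218 to 294 CPM on stimulated PEDOT:PSS and ITO. On stimulated P(rGO) they summed to 181 and 207 CPM, against 171 and 202 CPM on differentiated plates. Single markers did not all follow their sum. DBH averaged 325 to 662 CPM on films and 981 CPM on differentiated plates. HAND2 averaged 850 to 939 against 877 CPM, and TH 1.68 to 4.94 against 0.723 CPM. TH was barely read and uneven. It had 9.15 and 0.744 CPM on stimulated P(rGO), 3.72 and 0.599 CPM on PEDOT:PSS and 4.04 and 0.846 CPM on ITO. The second library of each thus fell within the 0.597 and 0.849 CPM of differentiated plates. Unstimulated films, at 1.05 to 2.55 CPM, lay above them. The mesenchymal sum was mostly TWIST1, at 137 to 172 CPM on films and 144 CPM on differentiated plates. NOTCH2 averaged 33.1 to 55.9 CPM on films and 22.4 CPM on differentiated plates, and FOSL2 10.6 to 21.4 against 5.58 CPM. The part of these markers in the members' levels was not tested.

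**Figure D4:**
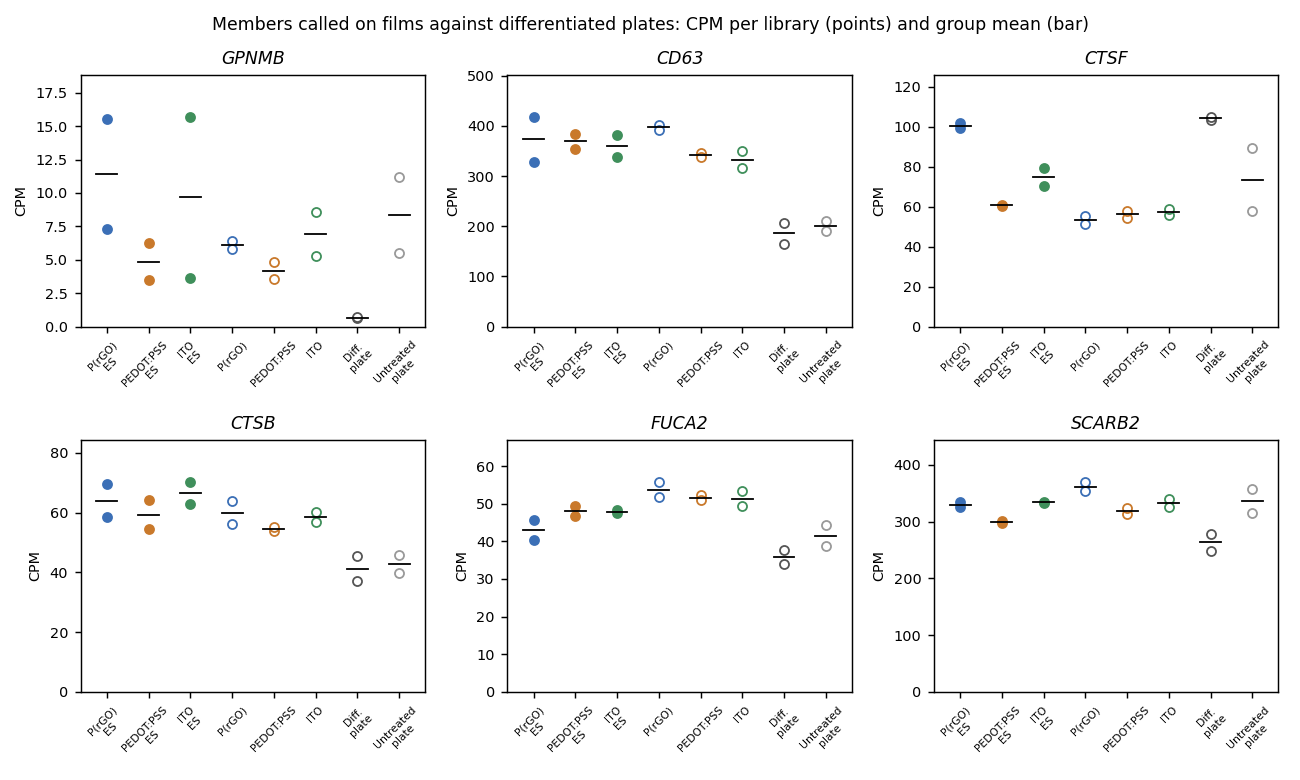
CPM of the 6 members called on at least 1 film against differentiated plates, per library (points; filled for stimulated films) with the group mean (bar), in each of the 8 groups. CD63 is near 315 to 419 CPM on films and 165 to 210 CPM on plates, GPNMB is below 1 CPM on differentiated plates only, and CTSF on stimulated P(rGO) sits beside the differentiated plates.

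Electrical stimulation itself called no member. On P(rGO), PEDOT:PSS and ITO, and for the mean over films, edgeR called 0 of 40 members and 0% of all genes. At an unadjusted p under 0.05 there were 3, 0 and 1 members on the 3 films and 2 for the mean, and the counts over all genes were 986, 126, 293 and 1021. DESeq2 called 1 member on P(rGO), among 14 of all genes, and 1 for the mean, among 7 of all genes, CTSF in both. The median log2 fold change of stimulated over unstimulated cells was 0.01, 0.05 and 0.01 over the members on P(rGO), PEDOT:PSS and ITO.

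Among the members CTSF had the smallest edgeR p for stimulation on P(rGO), on ITO and for the mean over films. CLN3 and GPNMB changed more for the mean, by 0.69 and 0.53 on the log2 scale, with SE of 0.35 and 0.33. On P(rGO) CTSF had 102 and 99.2 CPM with stimulation against 55.2 and 51.3 CPM without. On ITO it had 79.6 and 70.4 CPM against 55.7 and 59.0 CPM, and on PEDOT:PSS 61.0 and 60.3 CPM against 54.4 and 58.0 CPM. Stimulated libraries lay above unstimulated ones on each film, and those of P(rGO) came within a few CPM of the differentiated plates. The log2 fold change was 0.92 on P(rGO) (95% interval 0.56 to 1.27, edgeR adjusted p = 0.404), 0.39 on ITO (0.04 to 0.74, edgeR adjusted p = 1) and 0.11 on PEDOT:PSS (-0.24 to 0.46, edgeR adjusted p = 1). For the mean over films it was 0.47 (SE 0.09, edgeR adjusted p = 0.636). The call depended on the method: DESeq2 gave adjusted p of 0.00414 on P(rGO) and 0.0373 for the mean, and edgeR with no low-count filter gave 0.000516 and 0.00414. Fitted on the film groups alone, edgeR gave 0.0098 for the mean. The difference of the effect between films had an unadjusted p of 0.0111 and an edgeR adjusted p of 1. The share of reads outside annotated genes was 8.29 and 7.18% on stimulated P(rGO), 7.31 and 6.14% on ITO and 6.65 and 6.06% on PEDOT:PSS. It was 5.70 to 6.36% on unstimulated films, a range that holds the second stimulated library of ITO and of PEDOT:PSS. On differentiated plates, where CTSF was also high, it was 6.45 and 6.53%. The part of this share in the CTSF values was not tested.

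**Figure D5:**
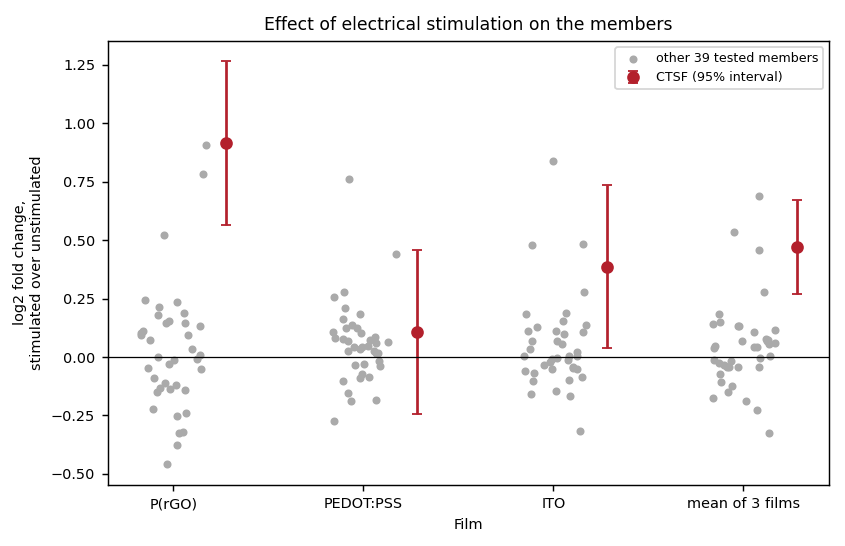
Log2 fold change of stimulated over unstimulated cells (vertical axis) for each film and for their mean; grey points are the other 39 tested members and the red point is CTSF with its 95% interval. CTSF lies at 0.92 on P(rGO), 0.39 on ITO and 0.11 on PEDOT:PSS. GPNMB reaches 0.91 on P(rGO), CLN3 0.84 on ITO and CTSZ 0.76 on PEDOT:PSS, and most other members lie near 0.

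FUCA2 and LIPA were the other members with an unadjusted p under 0.05 on P(rGO). FUCA2 had 45.6 and 40.3 CPM on stimulated P(rGO) against 55.8 and 51.7 CPM on unstimulated P(rGO) (log2 fold change -0.32, unadjusted p = 0.0252 and edgeR adjusted p = 0.861). LIPA had 24.1 and 24.4 CPM with stimulation against 36.1 and 30.7 CPM without (-0.46, unadjusted p = 0.0269 and edgeR adjusted p = 0.864). GPNMB spread widely among stimulated libraries, with 15.6 and 7.28 CPM on P(rGO), 6.25 and 3.49 CPM on PEDOT:PSS and 15.7 and 3.62 CPM on ITO, so its mean change of 0.53 (SE 0.33, edgeR adjusted p = 0.93) did not exceed that spread. Among the 3 unstimulated films edgeR called no member either, and none reached an unadjusted p under 0.05.

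Over the 8 group means, the tested genes whose log2 level was most like that of GPNMB were YAF2, ADGRE5, YES1P1, ARC and ABCC3, with Pearson correlations of 0.995, 0.988, 0.985, 0.982 and 0.980. ARC, an immediate early gene of neurons, averaged 14.5 to 22.1 CPM on films, 4.96 CPM on differentiated plates and 22.1 CPM in untreated cells. ADGRE5, an adhesion receptor, averaged 5.83 to 10.3 CPM on films, 2.41 CPM on differentiated plates and 10.6 CPM in untreated cells. These 5 were picked as the best of 18081 genes, and the groups share 1 platform and 1 set of controls, so the values are a description.

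The 3 transcription factors behaved differently from each other. TFEB had 7.70 to 12.4 CPM on films, 8.25 and 10.7 CPM on differentiated plates and 7.46 and 10.8 CPM in untreated cells. The groups overlapped, and no comparison called it. TFE3 had 74.7 to 114 CPM on films, 53.1 and 66.3 CPM on differentiated plates and 42.1 and 74.3 CPM in untreated cells, so its films lay above all plates, narrowly. It was called on unstimulated films against untreated cells (edgeR adjusted p = 0.0328) and not against differentiated plates, where its log2 fold changes on unstimulated films were 0.54, 0.34 and 0.67 and the edgeR adjusted p were 0.211, 0.574 and 0.137. With no low-count filter, edgeR called TFE3 on unstimulated ITO (adjusted p = 0.00787) and on all 3 stimulated films (0.00297, 0.0366 and 0.00915 on P(rGO), PEDOT:PSS and ITO). The call against untreated cells was lost in 6 of 13 alternatives, 5 of them with 1 library left out, at edgeR adjusted p of 0.0527 to 0.374. MITF had 0.516 to 1.26 CPM on films, close to the differentiated plates. The aspartic protease CTSD, a common lysosome marker, had 37.7 to 58.6 CPM on films, 34.0 and 42.2 CPM on differentiated plates and 36.9 and 41.7 CPM in untreated cells, and was called nowhere. LAMP1 had log2 fold changes of 0.42, 0.31 and 0.36 against differentiated plates on P(rGO), PEDOT:PSS and ITO without stimulation, with edgeR adjusted p of 0.106, 0.341 and 0.185.

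Other genes of the lysosome and its control were read from 6 further lists, of which further hydrolases are given only against untreated cells. On unstimulated P(rGO) against differentiated plates, 4 of 24 further membrane proteins, 1 of 15 further pump subunits, 2 of 16 sorting genes, 3 of 24 genes of TFEB and mTORC1 control and 0 of 26 autophagy genes were called, all higher. Of all genes 2.99% were called higher there. The amino acid transporter SLC36A1 had a log2 fold change of 0.99. The sialic acid transporter SLC17A5 was at 0.92 and CD164 at 0.49. RRAGD and RRAGC, Rag GTPases that recruit mTORC1 to the lysosome, were at 0.78 and 0.69, and RHEB, which activates it there, at 0.44. From these 5 lists SLC36A1 (0.89) was called on ITO, where 2.5% of all genes were called higher. On PEDOT:PSS none was, against 1.02% of all genes. On stimulated films the calls were RRAGD (0.69), RRAGC (0.81), ATP6V1C1 (0.64) and the transcription factor BHLHE40 (3.62) on P(rGO). On ITO they were RHEB (0.50) and CD164 (0.48), and on PEDOT:PSS there were none. Of all genes 0.835, 0.791 and 1.44% were called higher on stimulated P(rGO), PEDOT:PSS and ITO. Stimulation itself called no gene of these lists. Medians over the further pump subunits were 0.29, 0.26 and 0.25 on P(rGO), PEDOT:PSS and ITO, with 14 of 15 positive on each film. Over all genes the median and the positive share on unstimulated films against differentiated plates are given above.

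On differentiated plates against untreated cells the lists were called in both directions, where 13.8% of all genes were higher and 15.8% lower. Of the further hydrolases 4 were higher and 6 lower, led by the proteases CTSC and CTSV, which fell by 2.44 and 1.72 on the log2 scale, and by the iduronidase IDUA, which rose by 0.96. Of the further membrane proteins 4 were higher, HGSNAT, an acetyltransferase of heparan sulfate breakdown, by 1.59, and 2 lower, LAPTM4B and LAPTM4A, by 0.83 and 0.56. Among the pump subunits ATP6V1F fell by 0.64, while ATP6V1C1 and ATP6V0A1 rose by 0.50 and 0.62. Of the control genes 4 rose and 5 fell, with TSC1 and RRAGB higher by 0.81 and 1.38 and RHEB lower by 0.55. In autophagy 4 rose and 1 fell, MAP1LC3B, which coats autophagosomes, being higher by 0.68, and 4 of 16 sorting genes rose and 2 fell. On unstimulated films against untreated cells, where 20.4% of all genes were higher and 24.3% lower, 9 of 15 further pump subunits rose and 1 fell, 11 of 24 membrane proteins rose and 2 fell, 10 of 31 hydrolases rose and 5 fell, 6 of 16 sorting genes rose and 2 fell, 9 of 24 control genes rose and 1 fell, and 7 of 26 autophagy genes rose and 2 fell. The largest fold changes named by the rule there were MYC at -3.10, CTSC at -2.83 and HGSNAT at 1.75.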

How the data were processed

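Raw read counts per gene were deposited by the authors as 1 table of 16 libraries, 69222 gene rows and 5 summary rows. Per the submitters' processing notes, STAR, HTSeq and GRCh38.p13 or hg38 were used; versions and the strand setting are not given in the sources used here. Per the labels, the library kit was directional and poly(A)-selected. The summary rows were left out of library sizes and tests; reads outside annotated genes made up 4.59 to 8.29%, ambiguous reads 3.79 to 4.38% and unaligned reads 8.96 to 15.5% of a library. Of the gene IDs, 62639 matched a symbol. Exon lengths and coordinates are from GENCODE for GRCh38.

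CPM were computed on TMM-scaled library sizes. One edgeR model (4.0.16, R 4.3.3; quasi-likelihood test, filterByExpr, 18081 genes, 8 residual degrees of freedom) was fitted to all 16 libraries without a replicate term, and p-values were adjusted by Benjamini-Hochberg over all tested genes, with calls at 0.05. The standard errors come from that model and the intervals cover 95%. Alternatives were DESeq2 1.42.0, RLE scaling, no low-count filter, the compared groups alone, a replicate block and each library left out.

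Members and lists were chosen with earlier results of these data known. Per comparison, all called members were named up to 12, otherwise the 12 with the smallest p; TFEB, TFE3, MITF, LAMP1, CTSD and GPNMB were always named on plates and unstimulated films, and up to 3 called genes per other list; calls among the further hydrolases on unstimulated films against differentiated plates are not reported here. NPC1 and the members with an unadjusted p under 0.05 under stimulation were named after their values were seen. Same-numbered libraries correlated at -0.19 to 0.29 over 28 pairs of groups, 16 of them over 0.1; since 12 were not, the numbers were not taken as pairs. The labels give each replicate number its own prefix, whose meaning they do not state, so a run or batch shared by same-numbered libraries is possible; each prefix holds 1 library of every group, and the fit with a replicate block takes it into account. With 2 libraries a group, precision rests on the spread pooled over groups.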

Additional observations from a re-analysis of the deposited data

How the results depend on the processing

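No called value reversed under any alternative. Of 51 called values of named members, DESeq2 and the replicate block kept 51, RLE scaling 50, no low-count filter 44 and the compared groups alone 33. DESeq2 called 10, 4 and 7 members against differentiated plates on P(rGO), PEDOT:PSS and ITO without stimulation, where it called 8.09, 3.67 and 6.7% of all genes, and 5 each on stimulated P(rGO) and PEDOT:PSS, where it called 4.59 and 3.63%. With no filter the counts were 8 on unstimulated P(rGO) (4.41% of 36835 genes) and 7, 4 and 5 on stimulated P(rGO), PEDOT:PSS and ITO (3.29, 2.43 and 2.85%). With the compared groups alone they were 1 on stimulated P(rGO), 1 on stimulated ITO and 1 for differentiated plates against untreated cells, among 98, 207 and 320 of all genes. For stimulation, DESeq2 and no filter each called 1 member on P(rGO), among 14 and 168 of all genes, and 1 for the mean over films, among 7 and 137; the film groups alone called 1 for the mean, among 2. The cause was not tested.

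Leaving out 1 library leaves that group with 1, assumed to vary like the others. Called members then ranged from 3 to 20 for differentiated plates against untreated cells and from 18 to 21 for unstimulated films against untreated cells. Against differentiated plates they ranged from 1 to 6 on unstimulated P(rGO), 0 to 1 on PEDOT:PSS and 0 to 2 on ITO, and from 0 to 3, 0 to 1 and 0 to 2 on the same films with stimulation. They were 0 throughout for stimulation.

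With the replicate number as a block, 12 members were called on differentiated plates against untreated cells, 22 on unstimulated films against untreated cells, and 0 for stimulation. Against differentiated plates the counts were 5, 3 and 4 on P(rGO), PEDOT:PSS and ITO without stimulation and 2, 2 and 3 with it.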
